A study of Mus musculus with 48 samples.

Results

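Of 48 single mouse cells sequenced after a pulse of the transcription factor Mesp1, 23 had Mesp1 at 10 FPKM or more (Mesp1-high cells) and 15 had Mesp1 at exactly 0 (Mesp1-zero cells). The other 10 cells, with Mesp1 above 0 and under 10 FPKM, were left out of both sides and serve as a reference. The cells were thus selected on their Mesp1 level, and the comparison describes all other genes across the 2 sides. FPKM are fragments counted per length of transcript and per total of mapped fragments.

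All cells came from 1 line of Mesp1-inducible embryonic stem cells (strain 129P2/OlaHsd) that was differentiated as embryoid bodies, aggregates in which the germ layers begin to form. Every cell was treated with doxycycline, the inducing drug, at 500 ng/ml, added on day 2.25 and withdrawn on day 3.25, and was harvested on day 4. Live cells, those that excluded propidium iodide, were sorted and then captured one by one with the Fluidigm C1 system. In the labels all 48 cells are Mesp1-induced mesoderm of a single group without named cultures. The cells therefore count as 1 sample, and no p-value was computed over them. The table gives 1 Mesp1 value per cell, so transcripts of the inducible and the endogenous copy cannot be told apart, and no uninduced cells were analysed here. Mesp1 was read on day 4, after the drug had been withdrawn, and whether a cell at 0 had carried Mesp1 earlier was not tested.

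Mesp1 is a basic helix-loop-helix factor switched on briefly as cells leave the primitive streak, and it marks the precursors of the heart and of other cardiovascular mesoderm. Factors of this class pair with E proteins and bind E-boxes, short sites of the form CANNTG. In embryos and stem cells Mesp1 is known to act upstream of regulators of heart mesoderm and of the passage from epithelial to mesenchymal cells.

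In the Mesp1-high cells Mesp1 lay between 10.5 and 254 FPKM with a median of 34.4 FPKM, a description, since the cells were chosen by it. Just inside the limit lay cells C12 at 10.5, C62 at 10.9 and C36 at 12.5 FPKM. Just under it lay C23 at 8.03, C52 at 7.29 and C48 at 6.90 FPKM. The lowest values above 0 were 0.656, 0.757 and 0.956 FPKM, so cells lay near both limits.

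**Figure D1:**
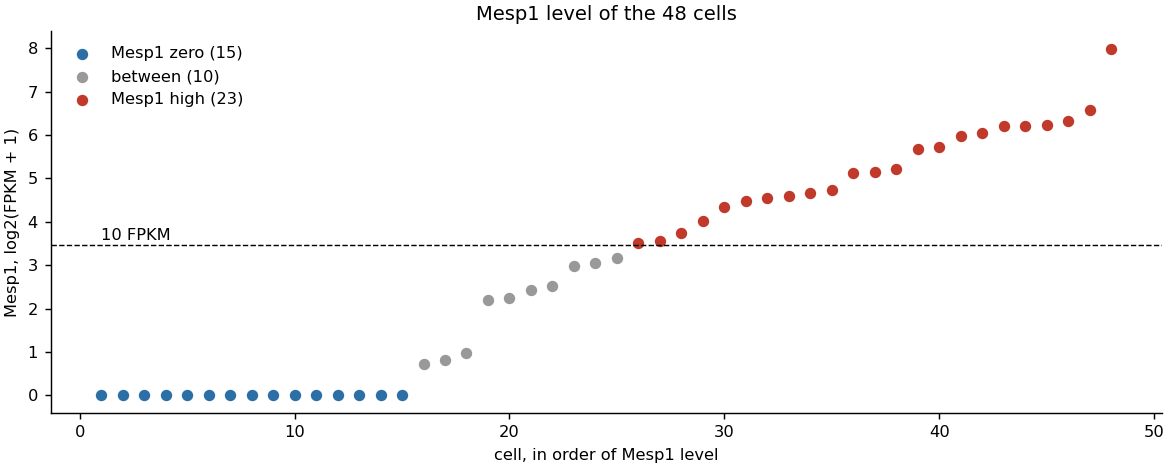
Mesp1 level of each of the 48 cells on the log2(FPKM + 1) scale, with cells in order of level and the dashed line at 10 FPKM. The 15 cells at 0 and the 23 cells at or above 10.5 FPKM form the sides, and the 10 grey cells lie between them at 0.656 to 8.03 FPKM.

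The number of genes detected, meaning at 1 FPKM or more, had a median of 6204 in the Mesp1-high cells (range 4788 to 7010) and of 6219 in the Mesp1-zero cells (range 4960 to 6960), so the ranges overlapped almost fully. Rows of short RNAs took over 50% of the summed FPKM in 9 of the 23 Mesp1-high cells and in 1 of the 15 Mesp1-zero cells. The part of these cells in the results was not tested, but leading values are given without them below. The cells also fall into labels up to 48 (11 Mesp1-high and 9 Mesp1-zero cells) and labels above 48 (12 and 6), and differences within each range are given beside the pooled ones. This split was made because the number of detected genes was known to differ with the label number. All 7 cells of few detected genes (under 5189) are labelled above 48, with 3 on the Mesp1-high side and 3 on the Mesp1-zero side. A value of 0 can also be a failed estimate, which was not tested. Hprt, a housekeeping gene, was listed at 0 in 9 of the 23 Mesp1-high cells. It was detected at 1 FPKM or more in 11 of the 23 Mesp1-high cells and in 11 of the 15 Mesp1-zero cells.

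Across 8847 genes, those at 1 FPKM or more in at least 10 of the 48 cells, the difference of mean log2(FPKM + 1), Mesp1-high minus Mesp1-zero, had a median of -0.02. Its 5th and 95th percentiles were -0.96 and 0.88. A difference of 1 or more in favour of the Mesp1-high cells was found for 286 genes (3.23%), and one of -1 or less for 393 genes (4.44%). Of these, 92 higher genes (1.04% of all tested) and 116 lower genes (1.31%) also passed that size in both label ranges. The spread between cells within a side had a median SD of 1.59 over genes on this scale, so a difference of 1 is smaller than the usual spread between single cells. The split of 286 against 393 depended on scaling: with each cell scaled to the same total over all rows it was 134 higher and 1186 lower, and the median of all genes moved to -0.39. With a pseudocount of 0.1 FPKM it was 1096 against 1005, and among cells labelled above 48 it was 1183 against 1007.

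Several genes that work beside or downstream of Mesp1 in mesoderm were higher in the Mesp1-high cells. Of 26 such regulators listed, 18 passed the filter, 6 were at least 1 log2 unit higher (Hand1, Snai1, Mesp2, Isl1, Foxc2 and Gata4) and 1 was lower (Dkk1). The 6 of 18 stand beside 3.23% of all genes tested, and 3 of the 18 passed 1 in both label ranges too, beside 1.04%. The median difference of the 18 was 0.76, beside -0.02 over all genes tested, and 16 of the 18 were above 0. Without the cells of over 50% short RNA the counts were again 6 and 1, with a median of 0.72. The 6 were not all the same genes, since Gata4 then fell under 1. Over all 26 members, with no filter on low values, the counts were the same and the median was 0.53. The 8 members that did not pass, Nkx2-5 and Tbx20 among them, were seen in too few cells for a difference, so medians over members that passed describe the measurable members only. In the lists that follow, counts are read against the same shares of all genes tested, 3.23% higher and 4.44% lower. The lists share members, Hand1, Isl1, Gata4, Mesp2 and Foxc2 among them, so 1 gene can be counted in several lists. A cell held a median of 11 of the 26 regulators on the Mesp1-high side (range 6 to 15) and of 7 on the Mesp1-zero side (range 2 to 14).

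Mesp2, the neighbouring paralogue of Mesp1 that patterns somites, was detected in 10 of 23 Mesp1-high cells (43.5%, exact 95% interval 23.2 to 65.5%, counting error only). Among Mesp1-zero cells 1 of 15 held it (6.67%, 0.169 to 31.9%), and 2 of the 10 cells between. The intervals of the 2 sides overlap, and intervals over cells of 1 sample are no test between the sides. The highest Mesp2 value was 69.1 FPKM on the Mesp1-high side and 10.2 FPKM on the Mesp1-zero side, with a median of 0 on both. The difference was 1.56 (1.97 among cells labelled up to 48 and 1.27 above), and 2.72 on the log2 ratio of mean FPKM. In GRCm38 Mesp1 lies at chr7:79792241-79793788 on the minus strand and Mesp2 at chr7:79810727-79813439 on the plus strand, 16938 bases apart. None of the 1226 windows of 50 bases in the 1275-base Mesp1 transcript occurs in a Mesp2 transcript (0 found), so reads of that length do not match both genes exactly.

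The promoters of 3 higher genes are shown because Mesp1 belongs to the factors that bind E-boxes. Each holds 1 match to CANNTG (in capitals; the motif reads the same way on both strands) in the 250 bases before its RefSeq start site, from GRCm38.p6 and all on the plus strand. Mesp2 is at chr7:79810477-79810726, Snai1 at chr2:167537945-167538194 and Pdgfra at chr5:75152001-75152250.
Mesp2: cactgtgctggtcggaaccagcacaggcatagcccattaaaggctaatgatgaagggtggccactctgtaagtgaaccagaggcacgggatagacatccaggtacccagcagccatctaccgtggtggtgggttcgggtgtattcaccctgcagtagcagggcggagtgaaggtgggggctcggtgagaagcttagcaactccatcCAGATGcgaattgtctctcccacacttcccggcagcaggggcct
Snai1: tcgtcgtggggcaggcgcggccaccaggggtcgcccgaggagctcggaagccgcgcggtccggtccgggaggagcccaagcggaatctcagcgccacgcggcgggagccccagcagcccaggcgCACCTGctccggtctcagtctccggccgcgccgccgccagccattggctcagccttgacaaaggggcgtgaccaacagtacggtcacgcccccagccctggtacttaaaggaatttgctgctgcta
Pdgfra: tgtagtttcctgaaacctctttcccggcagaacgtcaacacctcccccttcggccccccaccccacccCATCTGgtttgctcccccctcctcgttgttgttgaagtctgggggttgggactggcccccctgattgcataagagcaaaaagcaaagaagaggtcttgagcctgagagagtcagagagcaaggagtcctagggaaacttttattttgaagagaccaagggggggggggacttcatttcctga
The motif occurs in 66.0% of 27025 promoters of that length, so a match is common and says nothing of binding in these cells. The window of Krt18, a keratin gene that was lower in the Mesp1-high cells, also holds 1 match.

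Hand1 had the largest difference of all genes tested. It encodes a basic helix-loop-helix factor of lateral plate, extraembryonic and early heart mesoderm and lies at chr11:57828705-57832818. It was detected in 18 of 23 Mesp1-high cells (78.3%, 56.3 to 92.5%) and in 2 of 15 Mesp1-zero cells (13.3%, 1.66 to 40.5%). Its level ran from 0 to 523 FPKM (median 25.2) in the Mesp1-high cells and from 0 to 192 FPKM (median 0) in the Mesp1-zero cells. The sides overlapped, through 5 Mesp1-high cells listed at 0 and the 2 Mesp1-zero cells that held the transcript. The means of log2(FPKM + 1) were 4.44 ± 2.84 (SD over 23 cells) and 0.96 ± 2.30 (SD over 15 cells), a difference of 3.49. It was 4.56 among cells labelled up to 48, 2.30 above 48, 3.90 without the cells of over 50% short RNA, and 2.19 on the log2 ratio of mean FPKM, which weights high cells. In the cells between, 6 of 10 held Hand1.

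Of the 22 cardiac and lateral plate genes listed, Hand1 included, 14 passed the filter, 4 were higher (Hand1, Pdgfra, Isl1 and Gata4) and 0 lower. Of the 4, 2 were at least 1 higher in both label ranges too. The median difference was 0.64, with 13 members above 0 and 1 below, the growth factor gene Fgf8 at -0.60. Isl1, a factor of second heart field progenitors, was detected in 15 of 23 and 6 of 15 cells with medians of 16.5 and 0 FPKM. Its difference was 1.52 (0.69 and 2.35 in the label ranges), but the highest Isl1 value, 153 FPKM, was in a Mesp1-zero cell. On the log2 ratio of mean FPKM, the measure used above, Isl1 gave 0.66. Pdgfra is a receptor of early mesoderm and later mesenchyme. It was detected in 18 of 23 cells (78.3%, 56.3 to 92.5%) and 5 of 15 (33.3%, 11.8 to 61.6%), with overlapping intervals. Its medians were 7.74 and 0 FPKM and its difference 1.62 (1.41 and 1.88). The zinc finger factor Gata4 differed by 1.18 (medians 12.3 and 4.59 FPKM), from 2.51 among cells labelled up to 48 and -0.29 above, and by 0.60 without the cells of over 50% short RNA. Gata6, its relative, and Hand2, the Hand1 paralogue, differed by 0.57 and 0.76.

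Apart from Tpm1, Myl7 and Tnni1, the contractile genes listed were seen in few cells of either side. Nkx2-5, an early factor of cardiac progenitors, was listed at 0 in all 48 cells. Of 14 contractile genes 3 passed the filter, and 1 was higher, Tpm1. This tropomyosin is not specific to heart muscle, and it was present in all 23 Mesp1-high cells (22.6 to 1179 FPKM, median 169) and 14 of 15 Mesp1-zero cells (0.946 to 590 FPKM, median 66.8). Its difference of 1.48 was 0.85 without the cells of few detected genes. The cardiac troponin Tnnt2 was detected in 1 Mesp1-high cell and 0 Mesp1-zero cells. The atrial light chain Myl7 was detected in 7 and 5 cells and reached 753 FPKM in a Mesp1-high cell.

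**Figure D2:**
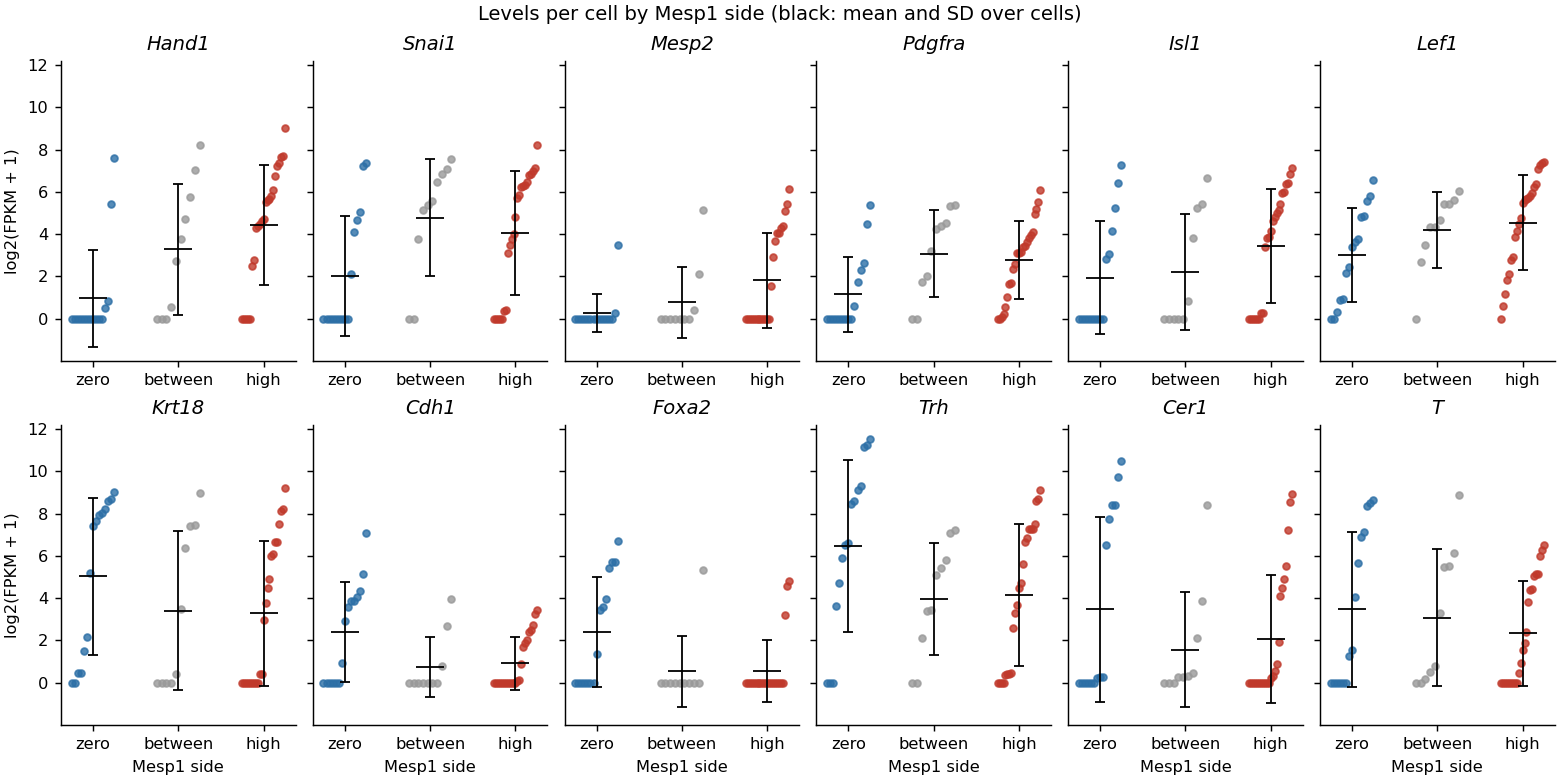
Level of 12 genes in each cell on the log2(FPKM + 1) scale, for the 15 Mesp1-zero, 10 between and 23 Mesp1-high cells, with the mean and SD over cells in black. Hand1, Snai1 and Pdgfra are at 0 in most Mesp1-zero cells and present in most Mesp1-high cells, Foxa2 and Cdh1 show the opposite tendency, and every gene has cells of both sides at overlapping levels.

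Paraxial mesoderm genes, those of the future somites, included 4 that were at least 1 higher (Mesp2, Aldh1a2, Foxc2 and Dll3) and 0 that were lower. Of the 4, only 1 was at least 1 higher in both label ranges too. Of 19 listed, 9 passed the filter, with a median difference of 0.98. Some of these passed it chiefly through the Mesp1-high cells, such as Mesp2 and Tbx6, each detected in 10 Mesp1-high cells and 1 Mesp1-zero cell. The median was 0.63 with the filter at 5 cells and 0.18 over all 19 members with no filter, while the counts stayed at 4 and 0. A Mesp1-high cell held a median of 5 of the 19 genes (range 1 to 11) and a Mesp1-zero cell 2 (range 0 to 12). The forkhead factor Foxc2 was detected in 12 of 23 and 3 of 15 cells, with a difference of 1.22 (0.57 and 2.18). The Notch ligand Dll3 was detected in 13 and 4 cells, with a difference of 1.13 (0.69 and 1.65). The T-box factor Tbx6 was detected in 10 and 1 cells and differed by 0.98, just short of the size counted. Aldh1a2, which makes retinoic acid, differed by 1.45 over all cells but by -0.34 among cells labelled up to 48 and 3.50 above, so its pooled difference came from 1 label range. Msgn1, which works with Tbx6, was detected in 3 Mesp1-high cells and 0 Mesp1-zero cells and did not pass the filter.

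Single mesenchymal genes were higher and single epithelial genes lower. Of 17 mesenchymal genes 14 passed, 3 were higher (Snai1, Pdgfra and Vim) and 0 lower. Of the 14, 8 were above 0 and 6 below. Their median of 0.46 was -0.15 on the log2 ratio of mean FPKM and -0.00 over all 17 members with no filter, so the list had no settled direction. Of 12 epithelial genes 5 passed, 0 were higher and 3 lower (Krt18, Cldn6 and Cdh1). Their median was -1.47, and -0.56 over all 12 members with no filter. Without the cells of over 50% short RNA these counts were 4 higher of 14 and 3 lower of 5.

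Snai1 encodes a repressor of E-cadherin that acts when cells leave an epithelium, at chr2:167538195-167542814. It was detected in 16 of 23 Mesp1-high cells (69.6%, 47.1 to 86.8%) and 6 of 15 Mesp1-zero cells (40%, 16.3 to 67.7%), and the intervals overlap. The values ran from 0 to 299 FPKM with a median of 27.4 on the Mesp1-high side and from 0 to 163 FPKM with a median of 0 on the other. The difference was 2.0 (4.04 ± 2.93 against 2.03 ± 2.84, SD over 23 and 15 cells), with 2.16 and 2.65 in the label ranges and 1.09 on the log2 ratio of mean FPKM. Vim, an intermediate filament of mesenchymal cells, had medians of 163 and 40.8 FPKM and a difference of 1.15, which was 0.15 on the log2 ratio of mean FPKM. Twist1, another factor of mesenchyme, was detected in 14 and 3 cells and differed by 0.94. N-cadherin, Cdh2, was present in nearly all cells of both sides (22 of 23 and 15 of 15) and differed by -0.34.

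E-cadherin, Cdh1, was detected in 8 of 23 Mesp1-high cells (34.8%, 16.4 to 57.3%) and 8 of 15 Mesp1-zero cells (53.3%, 26.6 to 78.7%). The intervals overlap, and the sides differed more in level: the highest value was 9.71 FPKM in Mesp1-high cells and 134 FPKM in Mesp1-zero cells, with medians of 0 and 6.54. The difference was -1.47 (-1.32 and -1.48). The keratin Krt18 had medians of 6.89 and 168 FPKM and similar highest values of 601 and 520. Its difference of -1.74 was uneven, at -2.84 among cells labelled up to 48 and -0.45 above, and -1.14 on the log2 ratio of mean FPKM. The tight junction gene Cldn6 was detected in 4 of 23 and 7 of 15 cells, with a difference of -1.53 (-1.06 and -2.26) that was -0.72 without the cells of few detected genes. Krt8 and Epcam differed by -0.73 and -0.72.

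Combinations within cells were chosen after values were seen, from genes already found higher or lower. Joint detection then follows in part from the share of cells with each gene. The counts below were not compared with what those shares alone would give, so they are a description only. Hand1 and Snai1 were detected together in 13 of 23 Mesp1-high cells, in 6 of 10 cells between and in 0 of 15 Mesp1-zero cells. Of the genes Hand1, Snai1, Pdgfra and Isl1, all 4 were present in 8 Mesp1-high cells and in 0 Mesp1-zero cells, and 3 of the 4 in another 8 and in 3 cells. None of the 4 was seen in 1 Mesp1-high cell and in 6 Mesp1-zero cells. Krt18, Cdh1 and Cldn6 were all present in 3 of 23 Mesp1-high and 6 of 15 Mesp1-zero cells. The 2 kinds of gene did not exclude each other, since 9 Mesp1-high cells held both Hand1 and Krt18, and Snai1 met Cdh1 in 5 Mesp1-high and 3 Mesp1-zero cells.

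**Figure D3:**
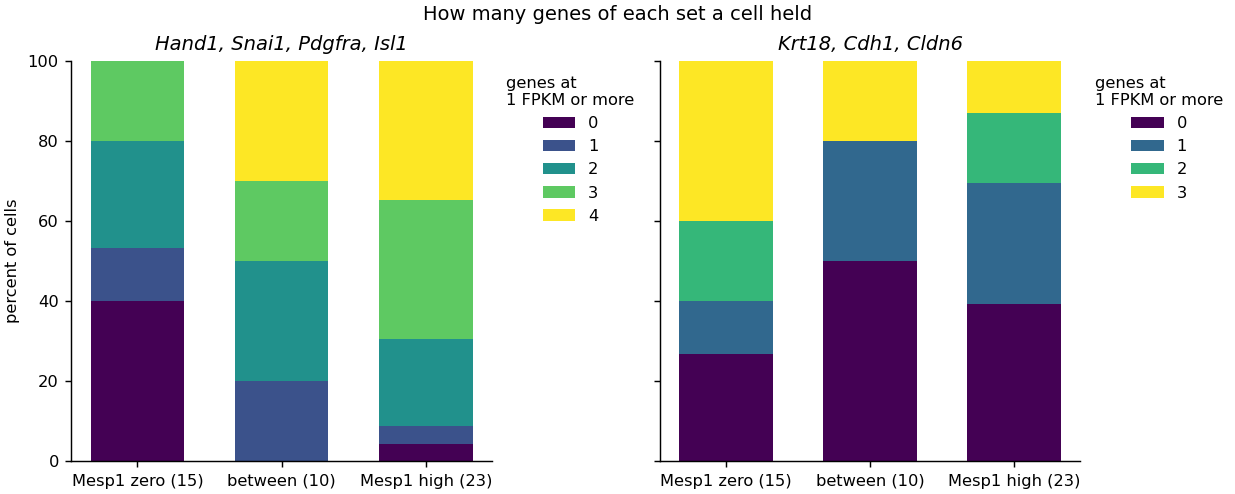
Percent of the cells of each side that held a given number of the genes Hand1, Snai1, Pdgfra and Isl1 (left) or Krt18, Cdh1 and Cldn6 (right) at 1 FPKM or more. All 4 genes on the left were present in 8 of 23 Mesp1-high cells and 0 of 15 Mesp1-zero cells, and all 3 on the right in 3 of 23 and 6 of 15.

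Of 14 endoderm genes listed, 5 passed the filter, 0 were higher and 3 were lower by at least 1 (Trh, Foxa2 and Hhex). The lipid carrier gene Apoe differed by -0.83 and the adaptor gene Dab2 by 0.18. The median was -1.22, and -0.14 over all 14 members with no filter. Among the defining genes, Sox17 was detected in 1 Mesp1-zero cell only, and Afp and Hnf4a were at 0 in all cells. Foxa2, a forkhead factor of endoderm and of the node and its midline derivatives, was detected in 3 of 23 Mesp1-high cells (13%, 2.78 to 33.6%) and 8 of 15 Mesp1-zero cells (53.3%, 26.6 to 78.7%). The intervals overlap, the highest Foxa2 values were 27.5 and 104 FPKM, and the difference was -1.84 (-1.94 and -1.83 in the label ranges). Hhex, a homeobox factor of anterior endoderm and of blood vessel precursors, was detected in 6 and 8 cells and differed by -1.22 (-0.37 and -2.21). Trh, which encodes a hormone precursor, reached 2985 FPKM in a Mesp1-zero cell against 557 FPKM on the Mesp1-high side. Its medians were 96.6 and 21.6 FPKM, and its difference was -2.31 over all cells, -4.30 among cells labelled up to 48 and 0.50 above. All 8 Mesp1-zero cells with Foxa2 also held Trh, as did all 3 such Mesp1-high cells. Trh was common, however, at 12 of 15 Mesp1-zero and 15 of 23 Mesp1-high cells, and 4 and 12 of these held no Foxa2. The joint detection therefore says little.

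Primitive streak genes gave no common direction. Of 18 listed, 13 passed, 0 were higher and 3 lower (Fgf5, Cer1 and T), with a median of -0.20. Fgf5, a growth factor of the primed epiblast and streak, was detected in 5 of 23 and 8 of 15 cells and differed by -1.71 (-2.21 and -1.10). The Nodal and BMP antagonist Cer1 differed by -1.40, with -3.79 and 1.14 in the label ranges, and the streak factor T by -1.12, with 0.26 and -3.04. The T difference was -0.07 without the cells of few detected genes, and that of Cer1 -0.46 without the cells of over 50% short RNA. Mixl1 and Eomes, factors of streak and mesendoderm, differed by -0.59 and -0.20 over all cells. Both pooled values joined opposite ones, 2.16 and -3.39 for Mixl1 and 1.63 and -2.19 for Eomes.

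Endothelial and blood, pluripotency and neural genes held no member past the size counted. Of 23 endothelial and blood genes 7 passed, with 0 higher, 0 lower and a median of -0.41. Kdr, a receptor of vascular and cardiac progenitors, was detected in 11 of 23 and 4 of 15 cells and differed by 0.83. Etv2, which drives blood vessel fate, was detected in 15 and 6 cells and differed by 0.76 (1.89 and -0.28). Cdh5, of the vessel wall, was at 0 in every cell. Of 16 pluripotency genes 10 passed, with 0 higher, 0 lower and a median of -0.15. Pou5f1 had medians of 1.24 and 14.3 FPKM and a difference of -0.96, and Nanog differed by -0.80. Of 11 neurectoderm genes 2 passed, with 0 higher, 0 lower and a median of -0.41, and Sox1 was detected in 1 Mesp1-high cell and 0 Mesp1-zero cells.

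**Figure D4:**
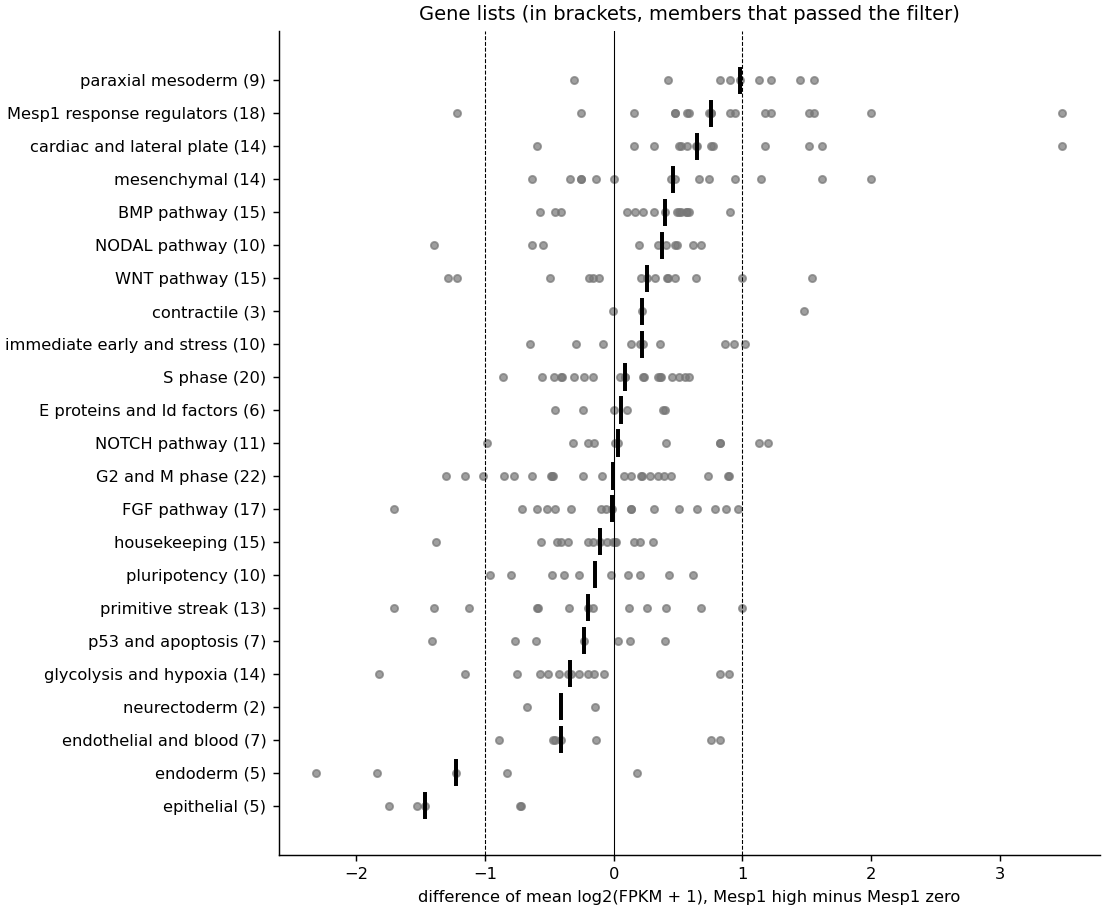
Difference of mean log2(FPKM + 1), Mesp1-high minus Mesp1-zero, for each member of 23 gene lists that passed the filter (grey points) and the median of each list (black bars), with dashed lines at -1 and 1. The medians run from -1.47 for epithelial genes to 0.98 for paraxial mesoderm genes, and Hand1 stands farthest to the right at 3.49.

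Among signalling genes single members passed the size counted, while the list medians lay between -0.01 and 0.40. In the WNT list 15 of 20 passed, 1 was higher and 2 lower (median 0.26). The higher one was Lef1, a nuclear effector of WNT signalling. It was detected in 21 of 23 and 10 of 15 cells, with medians of 42.9 and 9.43 FPKM and a difference of 1.54 (1.04 and 2.40). The lower ones were Dkk1, a secreted WNT inhibitor (-1.22), and the zinc finger factor Sp8 (-1.29). In the NOTCH list 11 of 18 passed, with 2 higher (Dll3 and the target Hey1), 0 lower and a median of 0.03. Hey1 differed by 1.20, with 0.19 and 2.67 in the label ranges. In the FGF list 17 of 18 passed, with 0 higher, 1 lower (Fgf5) and a median of -0.01. In the NODAL list 10 of 13 passed, with 0 higher, 1 lower (Cer1) and a median of 0.38. In the BMP list 15 of 19 passed, with 0 higher, 0 lower and a median of 0.40, and the inhibitory Smad6 came closest at 0.91. The E proteins and Id factors, which pair with or block factors such as Mesp1, held 6 of 7 genes past the filter, 0 higher and 0 lower, with a median of 0.05. Id1 was present in all cells of both sides, at medians of 222 and 199 FPKM.

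Genes of the cell's general state showed small list medians. S phase genes (20 of 20 passed) had 0 higher, 0 lower and a median of 0.09. Of 22 G2 and M phase genes, all passed, 0 were higher and 3 lower, with a median of -0.00: the spindle checkpoint kinase gene Bub1b differed by -1.30, the cyclin Ccnb1 by -1.16 and the mitotic kinase Aurka by -1.02. Without the cells of few detected genes Ccnb1 and Aurka differed by -0.42 and -0.15. Glycolysis and hypoxia genes (14 of 16 passed) had 0 higher, 2 lower and a median of -0.34, with 2 members above 0 and 12 below. The lower ones were the glucose transporters Slc2a1 (-1.82, from -3.19 and -0.05 in the label ranges) and Slc2a3 (-1.16). In the immediate early and stress list 10 of 16 passed, with 1 higher, Egr1 (1.02, but 0.38 without the cells of few detected genes), 0 lower and a median of 0.22. In the p53 list 7 of 10 passed, with 0 higher, 1 lower, Ccng1 (-1.42), and a median of -0.23. Of 15 housekeeping genes all passed, 0 were higher and 1 was lower, with a median of -0.11. That gene was Hprt, at medians of 0.531 and 8.70 FPKM and a difference of -1.38, so a gene often used as a constant reference was among the lower ones.

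Outside the lists, the largest differences that also passed 1 in both label ranges were spread over genes of many roles. After Hand1 came Crabp1, which binds retinoic acid in the cytoplasm. It was detected in 22 of 23 Mesp1-high cells (median 146 FPKM) and 8 of 15 Mesp1-zero cells (median 8.85 FPKM), a difference of 3.12 (1.52 and 5.14). Its highest value was 1088 FPKM in a Mesp1-zero cell, and the log2 ratio of mean FPKM was 0.14, so the sides differed in how many cells held Crabp1 rather than in mean FPKM. Sacm1l, a lipid phosphatase, and Gtf2b, a general transcription factor, differed by 2.31 and 2.30, and Armcx1 by 2.12. Cyr61, a matricellular protein and YAP target, had medians of 15.9 and 0.821 FPKM and a difference of 1.85 (1.90 and 1.92). The DNA repair gene Fancb was detected in 14 of 23 and 2 of 15 cells and differed by 1.87, and it passed the filter through the Mesp1-high cells alone. The others among the 15 largest were 2310009A05Rik, Ube2l6, Schip1, Blcap, Peg3as, B3gnt5 and Limch1, with differences from 1.76 to 2.04, beside Snai1. Peg3as is an antisense transcript, and whether reads were counted by strand is not given in the sources used here, so it cannot be told apart from its partner.

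The most negative difference was that of Hdac6, a cytoplasmic deacetylase of tubulin. It was detected in 11 of 23 Mesp1-high cells (0 to 58.6 FPKM, median 0.811) and 14 of 15 Mesp1-zero cells (0 to 80.5 FPKM, median 29.1). The difference was -2.78 (-3.04 and -2.67). Calca, which encodes calcitonin and its related peptide, was detected in 4 and 9 cells, with medians of 0 and 23.5 FPKM and a difference of -2.35 (-2.62 and -1.91). Katnal2, related to the severing enzyme katanin, was detected in 2 and 8 cells and reached 1.45 and 119 FPKM, with a difference of -2.08. The kinase gene Pim2 differed by -2.06 and the adaptor gene Grb7 by -1.88. Another 8 of the 15 most negative, beside Foxa2, were Mier2, 2900092E17Rik, Fam86, 1190007I07Rik, Cstf1, Acp6, Pcyt2 and Lhpp, from -2.28 to -1.87. Each of these 8 had cells of both sides at overlapping levels.

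The 10 genes with the highest rank correlation with Mesp1 over all 48 cells reached moderate values. This ranking uses the Mesp1 level that formed the sides, and 15 of the cells share a value of 0. It therefore repeats the comparison of the sides in part. A correlation within the cells that held Mesp1 was not computed, so a graded relation was not tested. Spearman's rho over 48 cells, given as a description of cells that share 1 preparation, was 0.58 for Zbed6 and Ube2l6, 0.56 for Fancb, 0.54 for St5 and 0.52 for Bmper. It was 0.49 for Limch1 and Rasgrp3, 0.48 for Rwdd3 and 0.47 for B3gnt5 and Neo1. Hand1, with the largest difference, had a rho of 0.43. Ube2l6, a ubiquitin-conjugating enzyme, was detected in 14 of 23 Mesp1-high cells, up to 172 FPKM, and in 0 of 15 Mesp1-zero cells, whose highest value was 0.744 FPKM. Limch1 was likewise detected in 13 and 0 cells, with a highest Mesp1-zero value of 0.528 FPKM. Neo1, a netrin receptor gene, was detected in 14 and 1 cells and Bmper, a secreted BMP modulator, in 13 and 2. Each of these 4 genes reached the 10 cells of the filter through the Mesp1-high cells alone and was picked for its correlation with Mesp1. Their uneven detection thus follows in part from how they were picked and is a description only. The lowest rho values were -0.50 for Bmp2k and -0.46 for Urb1, Bex1, Tpp2 and Tsg101. Bmp2k, picked for its low rho, was detected in 0 of 23 Mesp1-high and 7 of 15 Mesp1-zero cells.

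The leading differences were also computed with other limits for Mesp1. With Mesp1 at 20 FPKM or more, which 18 cells reached, Hand1 differed by 3.23, Snai1 by 2.18, Pdgfra by 1.67, Mesp2 by 1.75 and Foxa2 by -2.13 from the same 15 cells. With Mesp1 at 1 FPKM or more, 30 cells, the values were 3.25, 2.23, 1.72, 1.39 and -1.79. The cells between were not uniformly in the middle. Snai1 and Pdgfra were each detected in 8 of these 10 cells, at least as large a share as in the Mesp1-high cells, while Mesp2 was detected in 2, Cdh1 in 2 and Foxa2 in 1.

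Within the label ranges most pooled differences kept their sign. Of the 286 higher genes, 282 were above 0 among cells labelled up to 48 and 279 above 48. Of the 393 lower genes, 376 and 378 were below 0. These ranges hold parts of the same cells that fixed the pooled difference, so the shared sign is no independent check. The exceptions among the genes described were Gata4, Aldh1a2, Trh, Cer1 and T, whose sign turned in 1 range.

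**Figure D5:**
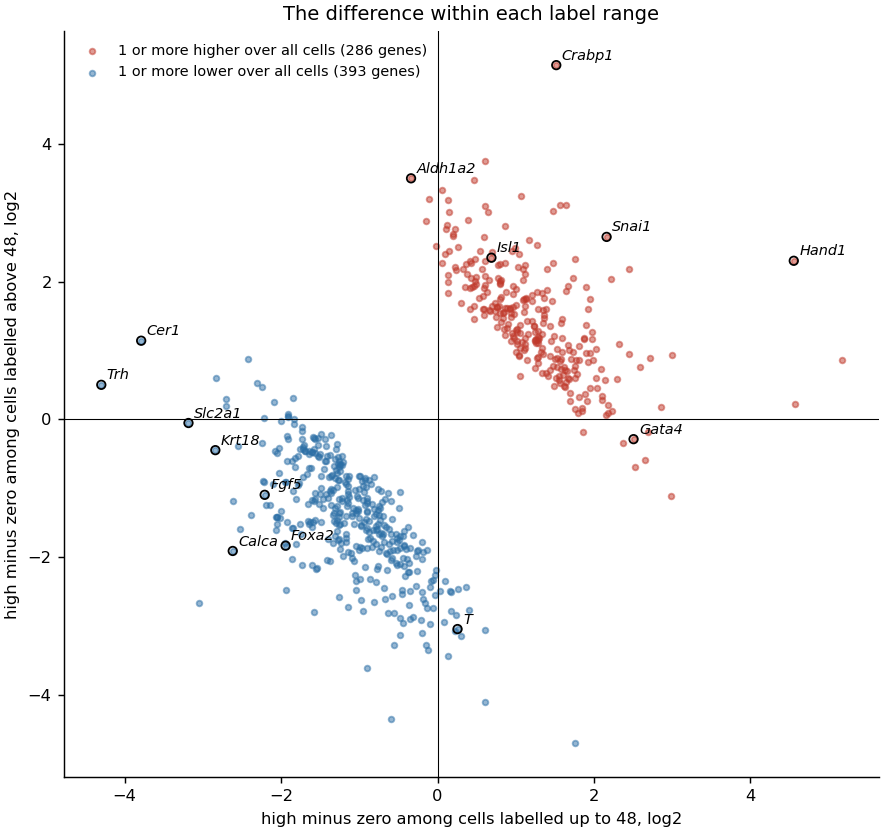
Difference of mean log2(FPKM + 1), Mesp1-high minus Mesp1-zero, among cells labelled up to 48 (horizontal axis) and above 48 (vertical axis), for the 286 higher and 393 lower genes. Hand1, at 4.56 and 2.30, and Foxa2, at -1.94 and -1.83, keep their side in both ranges, while Trh, Cer1, T, Aldh1a2 and Gata4 cross 0 in 1 range.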

How the data were processed

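The authors deposited 1 table with a column per cell. Its values are treated as FPKM: the file names no unit, but per the submitters' processing notes Cufflinks 2.2.1.0 was used, which gives FPKM. They list CASAVA 1.8.2, TopHat 0.7 and mm10 too, without saying what each was used for. FPKM keep no read counts, so depth is unknown. No source used here states the gene annotation or read filters.

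A total of 23746 rows held 23284 symbols, and rows of the 240 symbols on several rows were summed. Analyses used Python 3.11.15 with pandas 2.3.3, NumPy 2.4.6 and SciPy 1.17.1. Levels were compared as differences of mean log2(FPKM + 1), with a pseudocount of 1 FPKM, for genes at 1 FPKM or more in at least 10 of 48 cells. Mesp1 and 776 short RNA symbols (microRNA, small nucleolar and other small RNAs) were left out. Shares carry exact Clopper-Pearson 95% intervals. No cell was removed, and no doublet caller was run, since the table holds no counts. The calculation of the difference was checked on shuffled values of these cells with planted shifts, a check of that step only. Coordinates are from GENCODE M21 (GRCm38) and promoters from RefSeq.

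The cell selection, 23 gene lists and settings were chosen with earlier results of these data known. The rule named Mesp1, Mesp2, Kdr and Pdgfra; the 15 largest and 15 most negative differences counted in both label ranges; per list the 2 members at each end and each member counted; and the 10 genes most and 5 least correlated with Mesp1. Hand2, Gata6, Twist1, Cdh2, Tbx6, Msgn1, Nkx2-5, Sox17, Hnf4a, Afp, Cdh5, Sox1, Tbx20, Tnnt2, Nanog, Eomes and Mixl1, where a list did not already name them, were named after their values were seen, as were the gene combinations. Not every gene it picks is reported here. Alternatives varied the pseudocount, filter, detection, Mesp1 limits, scaling, cells, a covariate and the measure.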

Additional observations from a re-analysis of the deposited data

How the results depend on the processing

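Over 16 alternative settings, Hand1, Snai1, Mesp2, Pdgfra, Lef1, Foxa2, Cdh1 and Fgf5 kept their sign and a difference of at least 1 log2 unit. The settings that changed only the gene filter or the detection limit could not alter the difference of a single gene. The list medians of the Mesp1-related regulators ranged from 0.53 to 1.71. That of mesenchymal genes turned to -0.15 on the log2 ratio of mean FPKM. Counts depended more on the setting. Beside 286 higher and 393 lower genes (92 and 116 in both label ranges), a pseudocount of 0.1 FPKM gave 1096 and 1005 (447 and 297). Scaling each cell to the same total without short RNA rows gave 520 and 513 (177 and 160), and scaling over all rows 134 and 1186 (45 and 402). Cells labelled up to 48 alone gave 617 and 642, and those above 48 gave 1183 and 1007. The log2 ratio of mean FPKM gave 583 and 564 (210 and 150). Leaving out the cells of over 50% short RNA, chosen after seeing the data, gave 431 and 587 (164 and 174) from 14 cells a side. The causes were not tested, though fewer cells make means more variable. Among cells labelled up to 48 the sign turned for T (0.26) and Aldh1a2 (-0.34), and above 48 for Gata4 (-0.29), Cer1 (1.14) and Trh (0.50). Cells of few detected genes were 7 with under 5189, a limit of 3 median absolute deviations; the unscaled deviation was taken after a scaled one had left out 0 cells. No paired analysis was possible because the labels give 1 group. Single cells lose transcripts and depth is unknown, so a value of 0 does not show absence.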
